A study of Homo sapiens with 6 samples.

Results

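Integrins are the adhesion receptors that link a cell to the matrix around it, and laminins are the large proteins of the basement membrane to which several of them bind. An integrin is a pair of 1 alpha and 1 beta subunit, named by its pair, and Itgb1 is the partner shared by most alpha subunits. A laminin is a trimer of 1 alpha, 1 beta and 1 gamma chain. In breast tissue, the pair of Itga6 with Itgb4 anchors basal epithelial cells in hemidesmosomes to the laminin that holds Lama3 and Lamb3, while laminins that carry Lama4 or Lama5 with Lamc1 are found in basement membranes of vessels and of many epithelia. The gene rows described here were all rows of the count table whose symbol is Itga or Itgb followed by the name of the subunit, or Lama, Lamb or Lamc followed by a single digit. This rule found 36 of the 22989 rows, of which 17 encode alpha integrins, 8 beta integrins and 11 laminin chains.

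RNA counts came from 3 LINC00115 KD and 3 WT libraries, made to ask how the long non-coding RNA LINC00115 acts on stem-like properties. All 6 are labelled as breast cancer stem cells (BCSC) of MDA-MB-231, a line of human triple-negative breast cancer, made resistant to paclitaxel (PTX). The study sorted BCSC by high aldehyde dehydrogenase (ALDH) activity and knocked LINC00115 down with lentiviral short hairpin RNAs. The labels call the comparison group wild type, while legends of other experiments in the paper name a control hairpin. The labels do not say whether the libraries come from separate cultures. The paper's legend for this comparison names hairpin sh115-2, while the labels number the KD libraries sh115-1 to sh115-3. The p-values therefore measure the spread between these libraries, which may be technical.

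The libraries held between 36979221 and 38799331 counts, and replicates varied with a biological coefficient of variation of 5.21%. The gene symbols are written in mouse style, and 1129 rows carry Rik names, which belong to mouse genes, although the samples are labelled human. The table has 0 rows named LINC00115, so the knockdown could not be checked, and which group is KD is known from the labels alone. Values are given as normalized CPM, counts per 1000000 of the library total after TMM scaling. A row was called lower or higher in KD at an adjusted p under 0.05 (edgeR's quasi-likelihood test over all 13497 rows tested) and a fold change over 2. Of the markers of the labelled cells, Vim was at 3418 ± 49.8 normalized CPM in the WT libraries and 3736 ± 79.7 in the KD libraries, and Cd44 at 911 ± 45.8 and 879 ± 11 (SD, n = 3 each). Aldh1a3, an enzyme of the ALDH assay, had at most 4 counts in any library, and Aldh1a1 had 12, 8 and 17 counts in the WT and 52, 39 and 41 in the KD libraries. Of the 11 markers of the labelled line, including those that should be low in it, 8 were tested, with 3 called higher and 0 lower. This stands against 10.2% and 9.98% of all rows tested, as for each other list of markers. The summed level of the 11 lay between 5149 and 5214 in the WT and between 5583 and 5715 in the KD libraries. The 3 called higher were Aldh1a1 and 2 genes that should be low in this line. Esr1, the estrogen receptor that a triple-negative line lacks, had 29, 26 and 24 counts in the WT and 105, 82 and 104 in the KD libraries, and Cdh1, the epithelial cadherin, 2, 1 and 3 against 22, 30 and 31. Epcam had at most 5 counts and Pgr at most 3 in any library. Erbb2, also on this list, had 592, 689 and 640 counts in the WT and 1061, 1033 and 1029 in the KD libraries. Its log2 fold change of 0.70 was short of a fold change of 2.

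Of the 36 integrin and laminin rows, 27 had enough counts to be tested, 3 were called lower and 3 higher, or 22.2% of those tested, beside 20.2% of all rows tested. The rows called lower were Itga2, Itga7 and Itga8, and those called higher were Itgb4, Lamb3 and Itga9. Without the threshold on the fold, 12 rows passed as lower and 9 as higher, or 77.8%, beside 73.4% of all rows tested. Both shares lay near those of the whole table, so their number does not set the integrins and laminins apart. The median log2 fold change was 0.07 over the 27 rows and −0.01 over all rows tested, and the median size of the change was 0.53 against 0.45.

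**Figure D1:**
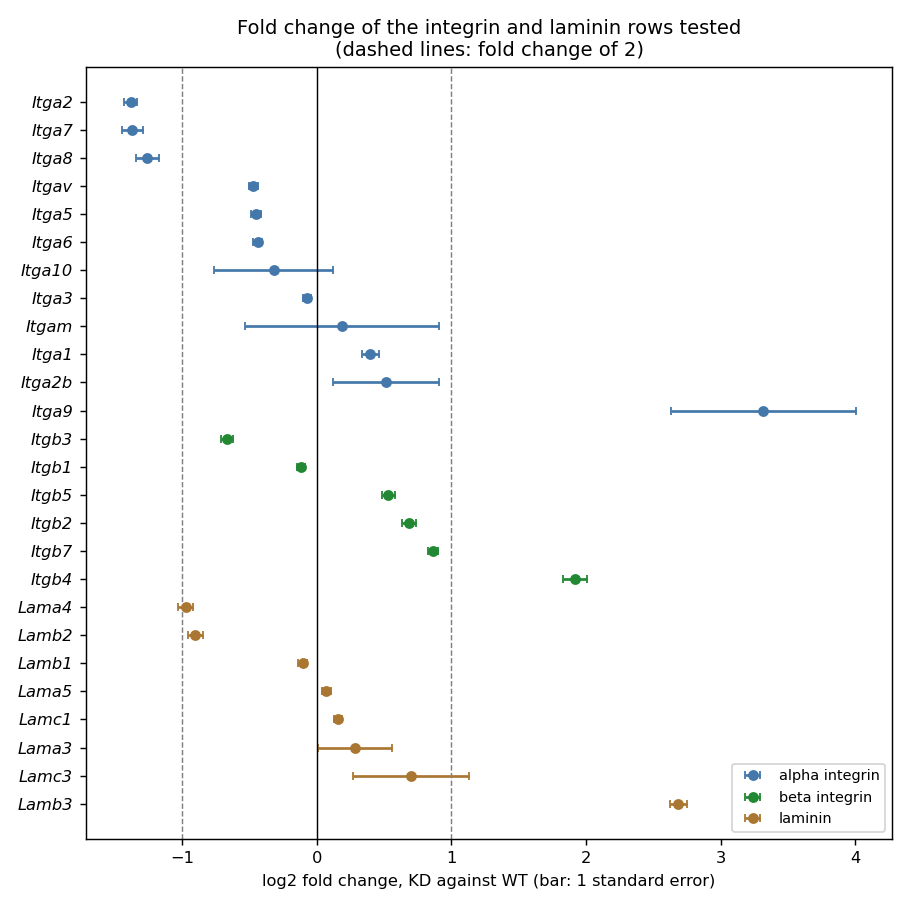
Log2 fold change, KD against WT, of 26 of the integrin and laminin rows tested, with bars of 1 standard error and dashed lines at a fold change of 2. Itga2, Itga7 and Itga8 lie beyond the lower line and Itga9, Lamb3 and Itgb4 beyond the upper one, while the other 20 lie between them.

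The receptors for laminin changed in opposite directions. Itgb4, whose long cytoplasmic tail binds the hemidesmosome, had 9.82, 11.2 and 12.7 normalized CPM in the WT libraries and 42.7, 38.0 and 46.5 in the KD libraries. Every KD library lay over every WT library, and Itgb4 rose 3.78-fold, a log2 fold change of 1.92 (standard error 0.09, edgeR's quasi-likelihood test, adjusted p = 4.79e-20). Its only alpha partner, Itga6, fell from 625, 612 and 612 to 454, 446 and 463 normalized CPM, a log2 fold change of −0.44 (standard error 0.03). The 2 rows of this pair thus moved apart.

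Itga3, the other main alpha subunit for laminins with Lama5 or Lama3, stood at 918, 955 and 948 normalized CPM in the WT and at 882, 892 and 905 in the KD libraries. These values do not overlap, but they differ by only 1.05-fold (log2 fold change −0.07, standard error 0.03, edgeR adjusted p = 0.0255). The adjusted p of Itga3 was between 0.0576 and 0.162 in edgeR without WT replicate 2, without WT replicate 3 or without any 1 of the KD replicates, and it passed without WT replicate 1. Itgb1, the common beta subunit, had 844, 850.2 and 836 normalized CPM in the WT and 772, 775 and 791 in the KD libraries. Its means of 843 ± 6.92 and 779 ± 10.5 (SD, n = 3 each) differ by −0.11 on the log2 scale (standard error 0.03, edgeR adjusted p = 0.000881).

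Itga7, a laminin receptor best known from skeletal and heart muscle, was among the 3 rows called lower. It had 39.8, 35.9 and 36.5 normalized CPM in the WT and 14.8, 14.4 and 14.2 in the KD libraries, a 2.58-fold fall (log2 fold change −1.37, standard error 0.08, edgeR adjusted p = 9.40e-18). The groups were well apart. Of 8 muscle markers, only 2 (Acta1 and Tnnt2) were tested, and 0 were called in either direction. The summed level of the 8 was 12.5 to 14.1 in the WT and 12.8 to 15.1 in the KD libraries, nearly all of it Tnnt2. Ckm, Myh7 and Myl2 had at most 1 count in any library, while Myh6 had 0 in every WT library and 11, 8 and 14 counts in the KD libraries, and Des 1, 0 and 0 against 10, 13 and 14. Acta1, with 0, 10 and 1 counts against 6, 10 and 16, was tested and did not pass. The part of muscle cells in the fall of Itga7 was not tested.

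Among the receptors for collagen, Itga2 fell and Itga1 rose. Itga2, the receptor of epithelial cells and platelets for fibrillar collagen, had 216, 189 and 182 normalized CPM in the WT and 73.6, 75.0 and 76.6 in the KD libraries. It fell 2.60-fold (log2 fold change −1.38, standard error 0.05, edgeR adjusted p = 2.33e-23), with the lowest WT library far above the highest KD library. Itga1, which prefers the collagen of basement membranes, rose from 41.0, 49.8 and 42.4 to 58.1, 59.9 and 57.4, a log2 fold change of 0.40 (standard error 0.06). Itga10, a subunit of cartilage, had 19 to 41 counts per library and did not pass the test, with a log2 fold change of −0.32 and a 95% confidence interval from −1.21 to 0.57. Itga11, of fibroblasts, had 0 counts in all 6 libraries, which allows up to 3 counts or 0.0776 to 0.0817 normalized CPM. This limit covers counting error only.

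Among the receptors that read the sequence arginine-glycine-aspartate, as in fibronectin and vitronectin, the alpha subunits Itgav, Itga5 and Itga8 fell, while the beta subunits went both ways. Itgav, the alpha subunit shared by Itgb3, Itgb5, Itgb6 and Itgb8, fell from 506, 482 and 487 to 355, 358 and 351 normalized CPM, a log2 fold change of −0.47 (standard error 0.03). Itga5, the fibronectin receptor, fell by nearly the same factor, from 298, 271 and 266 to 206, 205 and 199.8, a log2 fold change of −0.45 (standard error 0.04). Both differences exceeded the spread between replicates, and neither reached a fold change of 2.

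Itgb3, the vitronectin receptor subunit that also forms the fibrinogen receptor of platelets, fell from 177, 161 and 154 to 101, 101 and 107 normalized CPM (log2 fold change −0.67, standard error 0.05). Itgb5, a second vitronectin receptor subunit, rose from 67.6, 65.6 and 69.5 to 95.3, 95.1 and 102 (log2 fold change 0.53, standard error 0.05). These 2 partners of Itgav thus changed in opposite directions, and the groups did not overlap for either. Itgb6 and Itgb8, which activate latent TGF-beta on epithelia and other cells, were counted too rarely to be tested. Itgb6 had 0, 1 and 0 counts in the WT and 14, 4 and 11 in the KD libraries, and Itgb8 had 0 in every WT library and 3, 2 and 7 in the KD libraries.

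Itga8, a partner of Itgb1 for nephronectin that is known from mesenchyme and smooth muscle, had 32.0, 38.9 and 32.1 normalized CPM in the WT and 14.3, 13.6 and 15.1 in the KD libraries. It fell 2.39-fold (log2 fold change −1.26, standard error 0.08, edgeR adjusted p = 1.84e-15), with no overlap of the groups. Of 9 fibroblast markers, 4 were tested, with Pdgfra and Dcn called lower and 0 higher. The summed level of the list was 175 to 193 in the WT and 76.4 to 78.5 in the KD libraries, nearly all of it Pdgfra. Thy1 and Lum were at or near 0, and the part of fibroblasts in the fall of Itga8 was not tested. In libraries of many cells, fewer cells of a type and less RNA per cell cannot be told apart. Itga2b, the platelet partner of Itgb3, had 22 to 80 counts per library, and its log2 fold change of 0.52 did not pass (95% confidence interval −0.28 to 1.32). Without WT replicate 1, the library in which it was highest of that group, it was called higher at 1.01 (edgeR adjusted p = 0.0496). Of 8 platelet markers, 2 were tested, with 1 called lower and 0 higher. The summed level of the 8 was 2.28 to 3.39 in the WT and 1.32 to 1.53 in the KD libraries, and Gp9 was at 0.

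**Figure D2:**
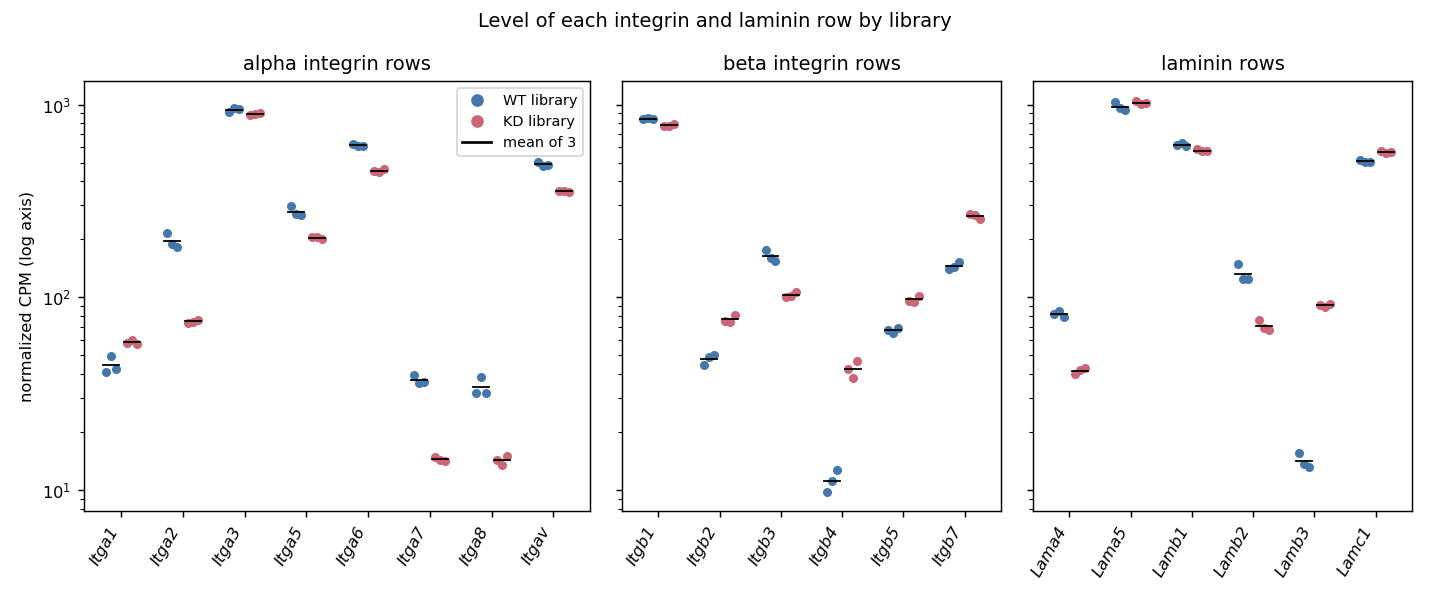
Normalized CPM by library, on a log axis, of 20 integrin and laminin rows with a mean of at least 10 in either group, with a bar at the mean of 3 libraries. Itgb4 and Lamb3 show the widest gaps upward from WT to KD and Itga2, Itga7 and Itga8 the widest downward, and Lama5 is the row in which the groups overlap.

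Both beta integrins best known from leukocytes rose. Itgb7, in lymphocytes the partner of Itga4 and Itgae in homing to the gut, went from 140.3, 143 and 153 to 272, 267 and 255 normalized CPM. This is a log2 fold change of 0.86 (standard error 0.04, edgeR adjusted p = 3.99e-20), short of a fold change of 2. Itgb2, the shared subunit of the leukocyte integrins, rose from 44.6, 49.3 and 50.3 to 75.5, 74.6 and 81.5 (log2 fold change 0.68, standard error 0.05). The alpha subunits that pair with them were barely counted. Itgb7 had between 5284 and 10517 counts per library, while Itga4 had 0 to 5 and Itgae 1 to 10. Itgb2 had between 1679 and 3097 counts, while Itgal had 0 in every WT library and 5, 2 and 7 in the KD libraries, Itgax had 0 to 8 and Itgam 2 to 12. Itgam was the only one of these 5 with enough counts to be tested, and its log2 fold change of 0.19 had a 95% confidence interval from −1.28 to 1.66.

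Leukocyte markers differed between the groups as well. Of 20 such markers, 9 were tested, with 4 called higher and 1 lower. The summed level of the 20 was 88.5 to 104 in the WT and 168 to 184 in the KD libraries. Most of this was S100a8, Cd68 and Lcp1, which are not limited to leukocytes. The 4 called higher were S100a8, from 1213, 1219 and 1300 to 3831, 3226 and 3746 counts, S100a9, from 0, 0 and 2 to 50, 68 and 48, Lyz2, from 33, 52 and 5 to 249, 250 and 247, and Cd74, from 46, 29 and 30 to 127, 94 and 151. Cx3cr1 was the 1 called lower, from 59, 42 and 85 to 0, 2 and 1. Ptprc, the surface protein CD45 that defines leukocytes, had 5 to 12 counts in the WT and 8 to 13 in the KD libraries, and Cd3e was at 0 throughout. The part of leukocytes in the rise of Itgb2 and Itgb7 was not tested.

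Itga9, another partner of Itgb1, which binds tenascin and osteopontin, was called higher on few counts. It had 5, 2 and 1 counts in the WT libraries and 35, 35 and 13 in the KD libraries, 0.0707 ± 0.0553 against 0.734 ± 0.340 normalized CPM (SD, n = 3 each). The groups did not overlap, but the log2 fold change of 3.32 had a 95% confidence interval from 1.92 to 4.71 (edgeR adjusted p = 6.18e-05). It was 4.10 without WT replicate 1 and 2.94 without WT replicate 3, and Itga9 stayed called without any single library.

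The laminin chains showed a rise of Lamb3 and a fall of Lama4 and Lamb2. Lamb3, the beta chain found in the epithelial laminin of hemidesmosomes, had the largest change of all well-counted integrin and laminin rows, from 15.6, 13.7 and 13.2 to 91.6, 89.2 and 92.2 normalized CPM. It rose 6.43-fold (log2 fold change 2.69, standard error 0.06, edgeR adjusted p = 1.72e-28). Lama3, the alpha chain of the same laminin, had 64 to 79 counts in the WT and 75 to 112 in the KD libraries, and its log2 fold change of 0.29 did not pass (95% confidence interval −0.27 to 0.84).

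Other epithelial genes are set beside the rise of Lamb3 and Itgb4. Of 13 epithelial markers, 7 were tested, with 3 (Grhl2, Krt17 and Cdh1) called higher and 2 (Ocln and Krt14) lower. The summed level of the 13 was 606 to 614 in the WT and 974 to 1024 in the KD libraries, nearly all of it Krt8 and Krt18. Krt14 rested on WT replicate 3, with 192 counts against 7 and 30 in the other WT libraries. Krt5, which was not tested, had 92 counts in that same library and 0 in every other. Epcam was near 0, with at most 5 counts. Markers of lung epithelium also differed, with 12 of 13 called higher. The summed level of the 13 was 20.5 to 29.2 in the WT and 114 to 126 in the KD libraries. Most of the summed lung level in the WT libraries was Aqp5, the 1 not called. Aqp5 rose from 23.3 ± 4.15 to 39.4 ± 1.83 normalized CPM (SD, n = 3 each). In every WT library, Scgb1a1, Scgb3a2 and 4 surfactant genes had 0 counts. Scgb1a1, the secretory protein of airway club cells, had 1516, 1586 and 1843 counts in the KD libraries. Of 12 markers of kidney epithelium, 8 were tested, with 5 called higher and 0 lower. The summed level of the 12 was 16.8 to 19.6 in the WT and 41.4 to 45.6 in the KD libraries. The 5 were Kap, with 0 counts in every WT library and 466, 311 and 410 in the KD libraries, Umod, with 0 against 76, 93 and 112, Cdh16, with 0 against 15, 14 and 11, Slc34a1, with 1, 0 and 0 against 137, 112 and 160, and Lrp2, with 3, 8 and 6 against 55, 53 and 35. Most of the summed kidney level in the WT libraries was Aqp1 and Cubn, which moved in opposite directions and fell short of a fold change of 2. Aqp1 rose from 8.21 ± 1.4 to 16.4 ± 1.35 normalized CPM, while Cubn fell from 8.28 ± 0.132 to 6.07 ± 0.361 (SD, n = 3 each). Aqp2 had at most 4 counts and Nphs1 at most 1 in any library. The part of such cells in the integrin and laminin changes was not tested.

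The chains of the vessel and general basement membrane laminins were among the most counted rows. Lama5, which together with Lamb1 or Lamb2 and Lamc1 forms the main laminins of adult tissue, was at 1034, 962 and 931 normalized CPM in the WT and at 1048, 1008 and 1016 in the KD libraries. The groups overlapped, and the log2 fold change was 0.07 (edgeR adjusted p = 0.0566), so that at this precision any rise was small, with a 95% confidence interval from 0.0027 to 0.14. Without WT replicate 1, the highest library of its group, Lama5 passed at a log2 fold change of 0.11 (edgeR adjusted p = 0.000189). It also passed without KD replicate 2, with DESeq2's size factors, with no low-count filter, with the replicate number as a block and with DESeq2's Wald test.

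Lama4, the alpha chain of endothelial and mesenchymal laminins, fell from 82.2, 84.7 and 78.8 to 40.1, 42.1 and 42.8 normalized CPM. The log2 fold change was −0.97 (standard error 0.05, edgeR adjusted p = 4.93e-18), just short of a fold change of 2, and Lama4 was called lower without WT replicate 3 and with upper quartile scaling (−1.02). Of 10 endothelial markers, 5 were tested, with 2 (Cdh5 and Esam) called higher and 1 (Tie1) lower. The summed level of the 10 was 9.24 to 11.4 in the WT and 65.6 to 67.3 in the KD libraries. Most of it was Egfl7 in the WT and Cdh5 in the KD libraries. Egfl7 fell from 9.21 ± 1.2 to 7.15 ± 0.694 normalized CPM, short of a fold change of 2. Cdh5 rose from 0.221 ± 0.131 to 57.8 ± 1.45 (SD, n = 3 each), while Emcn, Erg and Tek were at or near 0. The part of endothelial cells in the fall of Lama4 was not tested.

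Lamb2, the beta chain of vessel and kidney basement membranes, fell from 149, 125 and 125 to 76.5, 69.5 and 67.4 normalized CPM (log2 fold change −0.90, standard error 0.06, edgeR adjusted p = 1.80e-16). Lamb1, the most widespread beta chain, fell slightly, from 615, 633 and 613 to 587, 571 and 572 (log2 fold change −0.11, standard error 0.03, edgeR adjusted p = 0.00290). Lamc1, the gamma chain of most laminins, rose slightly, from 516, 503 and 505 to 571, 563 and 567 (log2 fold change 0.16, standard error 0.03, edgeR adjusted p = 2.83e-05). None of these 3 chains overlapped between the groups, as 77.8% of the integrin and laminin rows tested did not, beside 75.6% of all rows tested.

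The remaining laminin chains were rare. Lamc3 had 16 to 40 counts in the WT and 36 to 48 in the KD libraries, and its log2 fold change of 0.70 did not pass (95% confidence interval −0.18 to 1.58), although it was called higher without WT replicate 2 (log2 fold change 1.19, edgeR adjusted p = 0.0434). Lama1, a chain of the embryo, had 2 counts in each WT library and 0, 0 and 1 in the KD libraries. Lama2, the laminin chain of muscle and nerve, had 0, 1 and 0 in the WT and 2, 7 and 16 in the KD libraries. Neither was tested. The rows not tested numbered 9 in all: Itga4, Itga11, Itgae, Itgal, Itgax, Itgb6, Itgb8, Lama1 and Lama2.

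Because a ratio of 2 genes within a library needs no scaling between libraries, the ratio was compared for 11 known subunit pairs with at least 10 counts of both genes in every library. The smallest p that an exact permutation test of 3 against 3 libraries allows is 0.1, so no ratio could pass 0.05. The ratio of Itga6 to Itgb4 changed most, falling 5.14-fold in KD (difference in log2 ratio −2.36, standard error 0.13, exact permutation p = 0.1, adjusted over 11 pairs 0.1, two-sided). The ratio of Itga2 to Itgb1 fell 2.40-fold (−1.26, standard error 0.07) and that of Itgav to Itgb5 fell 2.00-fold (standard error of the log2 ratio 0.05). Both Lama4 and Lamb2 fell against Lamc1, by 2.19-fold and 2.08-fold, whereas Lama5 against Lamc1 moved by only 1.06-fold and Itga3 against Itgb1 by 1.03-fold. In all, 9 ratios lay lower and 2 higher in KD, with no overlap of the groups for any of the 11. Of all single rows tested, 75.6% did not overlap, but that share is of scaled levels, and none was computed for ratios. The pairs share genes and are not independent of each other.

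**Figure D3:**
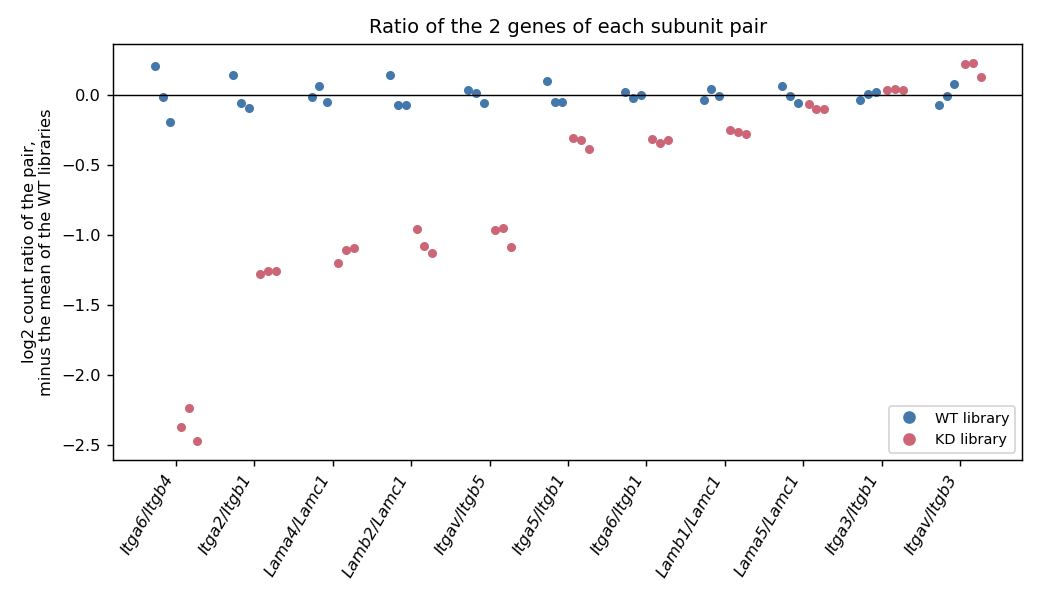
Log2 ratio of the counts of the 2 genes of each pair in every library, less the mean of the WT libraries, for 11 pairs ordered by the difference. The KD libraries lie near −2.36 for Itga6/Itgb4 and within 0.1 of the WT mean for Lama5/Lamc1 and Itga3/Itgb1.

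The make-up of the families shifted accordingly. Among the counts of all beta integrins, the share of Itgb1 went from 65.9% ± 0.439 to 57.1% ± 0.278 (SD, n = 3 each) and that of Itgb3 from 12.8% ± 0.886 to 7.55% ± 0.145. The share of Itgb7 went from 11.4% ± 0.558 to 19.4% ± 0.856 and that of Itgb4 from 0.878% ± 0.114 to 3.11% ± 0.276. Among the laminins, Lamb3 went from 0.599% ± 0.0342 to 3.78% ± 0.0664 and Lama4 from 3.48% ± 0.127 to 1.73% ± 0.0848, while Lama5 kept the largest share, 41.4% ± 0.915 and 42.5% ± 0.188. Among the alpha integrins, the share of Itga3 went from 35.6% ± 1.18 to 43.1% ± 0.336 although its own level was slightly lower, beside a fall of the family's summed level, which was 2641 ± 35.7 normalized CPM in the WT and 2072 ± 12 in the KD libraries. The summed level of the beta integrins was 1279 ± 3.56 and 1364 ± 17.2, without overlap, and that of the laminins 2356 ± 74.9 and 2408 ± 39.3, with overlap. These shares are of counts, which grow with the length of a transcript. They can be set side by side between groups but do not rank the genes.

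**Figure D4:**
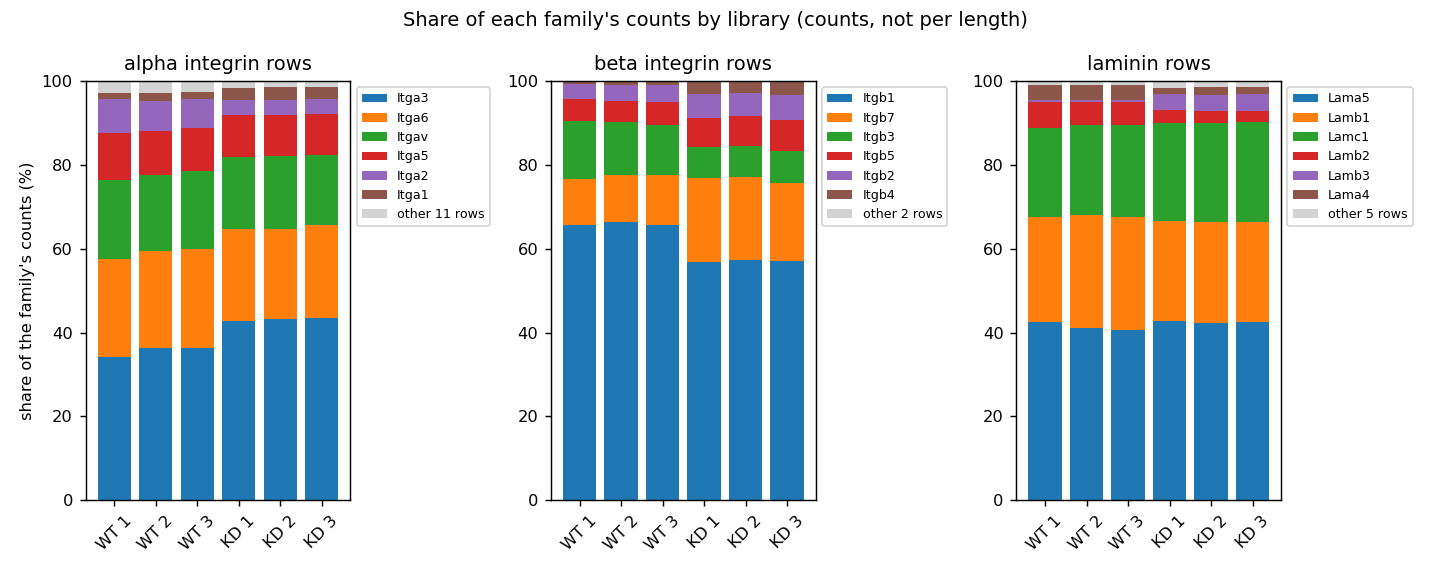
Share of the counts of the alpha integrins, beta integrins and laminins taken by each row in every library, in percent, with rows under 2% in both groups joined in grey. The share of Itgb1 is lower and that of Itgb7 higher in the 3 KD libraries, and Lamb3 is visible as a band mainly in KD.

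Genes that work with integrins and laminins were counted from 4 lists. The first list held 35 genes for partners of integrins inside the cell, which need not bind integrins directly. Of these, 33 were tested, 2 were called higher and 0 lower, against 10.2% and 9.98% of all rows tested. By the adjusted p alone, 20 passed as higher and 10 as lower, against 36.7% of all rows tested each way. The genes called were Lims2, an adaptor of the integrin-linked kinase complex, from 11.2 ± 0.622 to 39.1 ± 3.37 normalized CPM (SD, n = 3 each), and Tns1, a tensin that ties integrins to actin, from 11.2 ± 0.575 to 38.6 ± 1.57. The median log2 fold change of the list was 0.13.

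Of 30 ligands of integrins other than laminins found in the table, 17 were tested, 5 were called higher and 1 lower, against 10.2% and 9.98% of all rows tested. By the adjusted p alone, 9 ligands passed as higher and 4 as lower, against 36.7% of all rows tested each way. Tnc, the matrix protein tenascin C, fell from 39.1 ± 3.26 to 7.85 ± 0.919 normalized CPM (log2 fold change −2.32, standard error 0.09, edgeR adjusted p = 4.72e-22), while Tgfbi rose from 2.99 ± 0.551 to 12.7 ± 0.263 (log2 fold change 2.08). The other 4, Cdh1, Fbn1, Icam1 and Thbs2, stayed under 10 normalized CPM. The median of the list was 0.16.

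Of 24 genes of the basement membrane around laminins, 15 were tested, 3 were called lower and 2 higher, against 9.98% and 10.2% of all rows tested, and the median was −0.17. By the adjusted p alone, 7 of these genes passed as lower and 4 as higher, against 36.7% of all rows tested each way. Col4a5, a chain of type IV collagen, fell from 76.4 ± 3.22 to 32.2 ± 2.03 normalized CPM (log2 fold change −1.25), and Col4a6, Col17a1, Smoc1 and Egflam, the other 4 called, stayed under 10. Of 20 laminin receptors that are not integrins and their partners, 18 were tested, and Bcam, a receptor for Lama5, was the 1 called, against 20.2% of all rows tested, higher on 0, 0 and 3 counts in the WT and 14, 37 and 28 in the KD libraries. The median of this list was 0.05, and 8 genes passed the adjusted p each way.

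**Figure D5:**
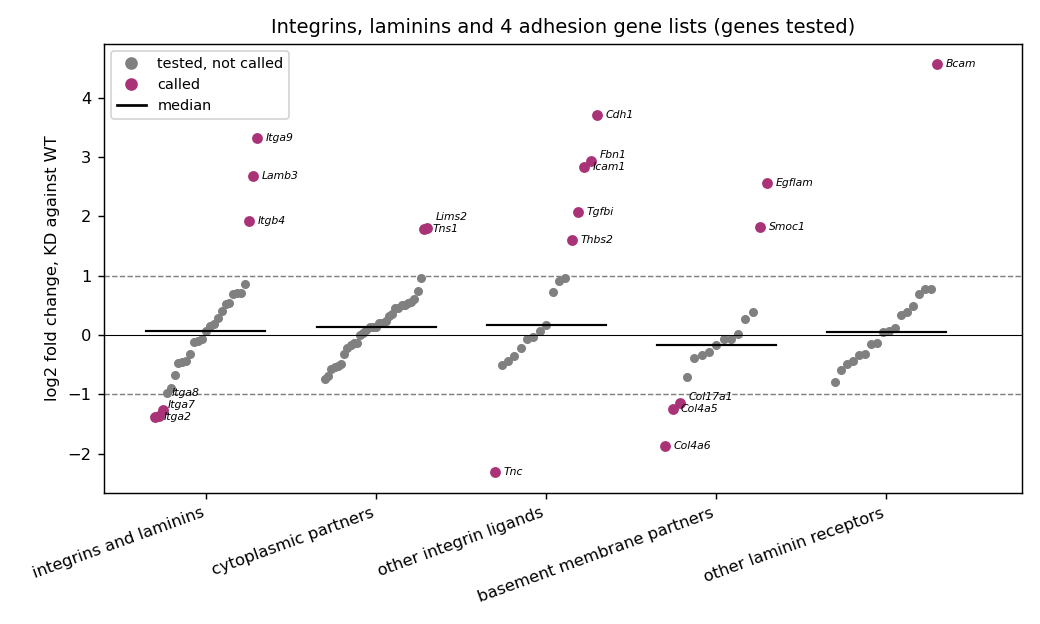
Log2 fold change, KD against WT, of every gene tested among the integrins and laminins and in the 4 lists of adhesion genes, ordered within a list, with called genes named and a bar at the median. The medians lie between −0.17 and 0.16, and Bcam and Tnc mark the highest and lowest points.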

How the data were processed

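The authors trimmed adapters, mapped the reads with HISAT2 and deposited whole-number counts per gene symbol for 6 libraries, without normalization. The paper names hg19 as the genome, while the submitters' processing notes list hg38, HISAT2, featureCounts and DESeq2. Neither the annotation nor whether strand was used is given in the sources used here, so reads of paralogs and overlapping genes may be split in ways not known, and no positions, sequences or lengths were joined to the mouse-style symbols. Columns were matched to samples by name, and 0 columns of values were left unused. No row had a blank name. The labels and the paper name different RNA and library kits.

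The test was run with edgeR 4.0.16 under R 4.3.3: filterByExpr (minimum count 10, minimum total 15), TMM scaling, the quasi-likelihood test with the group only, and Benjamini-Hochberg adjustment over 13497 rows. Standard errors came from the F statistic (absolute log2 fold change over its square root), and 95% intervals use the fit's degrees of freedom. The fold threshold of 2 is that of the study's methods. The script was tested on simulated counts. Alternatives were other scalings and filters, DESeq2 1.42.0, each replicate left out, the replicate number as a block and a test against a fold change of 1.5.

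The members and lists were chosen with earlier results of these data known. Values in every library are given for rows with a mean of at least 10 normalized CPM, or called with at least 20 counts in each library of the higher group. Itga9, called on fewer counts, and the other low rows were given by their counts. From the 4 adhesion lists, called genes with at least 10 normalized CPM in a group were named, up to 5 a list and direction. Other genes were named after their values were seen. No library was a copy of another: within a group, chi-square over its degrees of freedom was 3.94 to 7.96 for each pair.
Results for some genes, among them 1 tested laminin row that is in the counts and family sums but in no pair, are not reported here.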

Additional observations from a re-analysis of the deposited data

How the results depend on the processing

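The 3 rows called lower (Itga2, Itga7 and Itga8) and Itgb4 and Lamb3 among those called higher were called under each of the 14 alternatives run. Itga9 was called in all but the filter of at least 10 counts in every sample, which removes it. The number of integrin and laminin rows called higher, 3, was 7 with no low-count filter, 6 with DESeq2's Wald test and 5 in the test against a fold change of 1.5, which called 6 lower. The rows added without the filter were Itgal, Itgb6, Itgb8 and Lama2, all on few counts. With each replicate left out, 3 to 5 rows were called higher (5 without WT replicate 1 or 2) and 3 to 4 lower. By the adjusted p alone, 14 rows were higher with no filter, against 9, and 9 to 12 with a replicate left out. In the adhesion lists, calls of ligands as higher numbered 3, of basement membrane genes 0 and of other laminin receptors 0 with at least 10 counts in every sample, and calls of basement membrane genes numbered 1 with no filter and with DESeq2's Wald test. With a replicate left out they numbered 1 to 2 there (1 without WT replicate 1 or 3 or KD replicate 2), and 0 to 1 cytoplasmic partners were called lower (1 without KD replicate 1). The log2 fold change of Itgam, which did not pass, turned to −0.17, −0.19 and −0.02 without WT replicate 3, KD replicate 1 and KD replicate 2, in a range up to 0.65. With the replicate number as a block, 3 rows were called lower and 3 higher, and 12 and 10 passed the adjusted p, since Lama5 then passed (0.0234, edgeR's quasi-likelihood test). Libraries with the same number did not deviate together (correlations 0.042, −0.015 and −0.021), and only for number 1 did the library correlate best with its own number. These values show no pairing by number, but with 3 libraries per group they cannot exclude a shared culture or batch. Other causes of these moves were not tested. Scaling moved the median log2 fold change of all rows most with upper quartile scaling, by −0.0411. Depth limits the 9 rows not tested and Itga2b, Itga9, Itga10, Itgam, Lama3 and Lamc3, whose 95% intervals span more than 1 log2 unit.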
